A study of Homo sapiens with 4 samples.

Results

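Cadherins and catenins, the genes of cell-to-cell adhesion at adherens junctions, were followed in the MHCC-LM3 cell line, which comes from a human hepatocellular carcinoma. The 10 genes listed were CDH1, CDH2, CDH3, CDH6, CDH11, CDH17, CTNNA1, CTNNB1, CTNND1 and JUP. A gene was taken as measured where a row of the array carried its symbol and no other, and 9 of the 10 were, out of 22465 genes in all. Each of the 9 had 1 such row. CTNND1, which encodes p120 catenin, is not analysed here, because the 1 row with its symbol also carries SELENOH. The list was drawn up from the gene families with earlier results of these data known, and further cadherins and catenins stand in lists of their own below. CDH6 was chosen by its large fall between these same groups. The CDH6 values are therefore given as a description with no test, and CDH6 is left out of the counts of called genes.

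Cells received 50 µM zerumbone, a sesquiterpene of ginger plants, or the solvent DMSO, and total RNA was taken after 24 h. Each of the 2 groups has 2 arrays. Values are the authors' log2 expression values, differences are zerumbone minus DMSO on that log2 scale, and errors are the SD over the 2 arrays. The labels do not say whether 2 arrays of one group stem from different cultures. The p-values therefore rest on a spread between arrays that could be purely technical.

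Classical cadherins span the membrane and bind cadherins of the neighbouring cell in the presence of calcium. Their tails hold p120 catenin and either beta-catenin or plakoglobin, and alpha-catenin ties this complex to actin. Beta-catenin also has a separate life in the nucleus, where it acts with TCF factors on Wnt target genes. Hepatocytes carry both E-cadherin and N-cadherin at their junctions.

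In the RNA of zerumbone-treated cells CDH2 was 3.0-fold, CDH17 2.39-fold and CDH1 1.39-fold lower. CDH6, the gene chosen by its fall, was at least 16.1-fold lower. Of the catenins, CTNNA1 was 1.71-fold higher, JUP was 1.70-fold lower, and CTNNB1 did not pass the test. Of the 8 measured genes other than CDH6, 4 fell, 1 rose and 3 did not pass, at a limma adjusted p under 0.05 over all 22465 genes. Over all genes 17.7% fell and 18.4% rose by the same test, 36.0% in either direction. Of the 9511 genes above background on every array, which include the 5 called members, 66.8% were called, so a call was common among genes at such levels. Both zerumbone values lay beyond both DMSO values for 69.9% of all genes, so a lack of overlap was common as well. In bulk RNA, fewer cells of a type and less RNA per cell cannot be told apart.

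**Figure D1:**
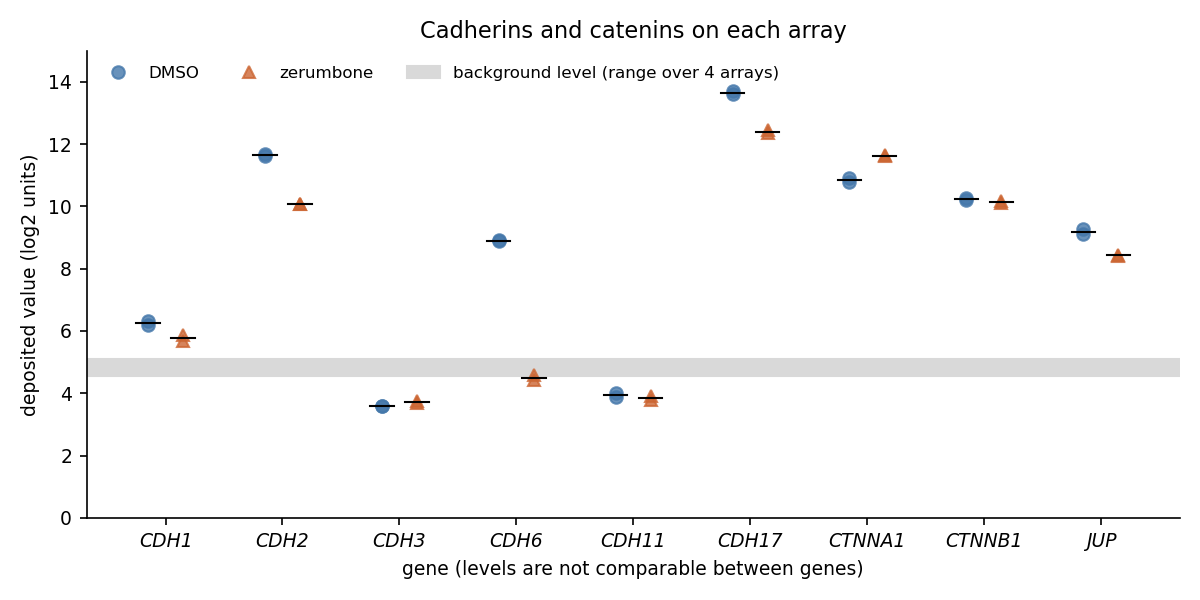
Deposited log2 value (y axis) of the 9 measured genes (x axis) on each DMSO array (circles) and zerumbone array (triangles), with group means as black bars and the range of the background level over the 4 arrays, 4.54 to 5.10, as a grey band. CDH6 drops to the band or below it under zerumbone, CDH3 and CDH11 lie under it in both groups, and CTNNA1 is the one gene above the band that is higher under zerumbone.

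CDH2 encodes N-cadherin, a type I classical cadherin of neural and mesenchymal cells that hepatocytes express as well. Its values were 11.69 and 11.62 on the DMSO arrays and 10.06 and 10.08 on the zerumbone arrays. The arrays of each group lay close together and the groups were 1.55 log2 units apart at their nearest. The mean was 11.65 ± 0.047 (SD, n = 2) without and 10.07 ± 0.00764 (SD, n = 2) with zerumbone, a difference of -1.58 with a standard error of 0.063 and a limma adjusted p of 9.03e-05. Among the 22465 genes, 657 had a lower difference.

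CDH1 encodes E-cadherin, the type I cadherin of epithelia. It read 6.32 and 6.18 under DMSO and 5.67 and 5.88 under zerumbone. These values lie above the background level of each array, 4.54 and 5.10 for the DMSO arrays and 4.74 and 5.03 for the zerumbone arrays, but not far above it. The groups did not overlap, with a gap of 0.30, a lack of overlap found in 69.9% of all genes. The difference was -0.48 (95% interval -0.74 to -0.22) with a limma adjusted p of 0.019. That call was lost without DMSO replicate 1 (adjusted p 0.12), without DMSO replicate 2 (0.0634) and without zerumbone replicate 1 (0.0572).

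CDH3, the gene of P-cadherin, another type I cadherin of epithelia, was at background level in both groups. It read 3.58 and 3.60 under DMSO and 3.75 and 3.69 under zerumbone, and limma gave an adjusted p of 0.181. CDH3 and CDH1 are next to each other among the protein-coding genes of chromosome 16 in RefSeq (GRCh38.p14). Of this neighbouring pair, CDH1 was measured above background and CDH3 was not.

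CDH6 encodes K-cadherin, a type II classical cadherin known from the developing kidney and from renal and ovarian carcinoma. It read 8.91 and 8.88 on the DMSO arrays and 4.41 and 4.60 on the zerumbone arrays. Both zerumbone values lie under the background level of their arrays, so the difference of -4.39 is not a measured size. With the background level in place of the dimmer values, CDH6 was at least 16.1-fold lower.

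Likeness between genes was measured as the Euclidean distance over the 4 arrays, in log2 units, between values taken relative to the DMSO mean. It is not given for CDH6, whose zerumbone values lie under background. For CDH2 the nearest genes were DHX37, PLXND1 and GNA11, at 0.0279 to 0.0475, and for CDH17 they were PNN, GMNN and DUS2, at 0.0149 to 0.0206. With 2 groups of 2 arrays, such nearness is set almost wholly by the size of the difference.

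CDH11 encodes OB-cadherin, a type II cadherin of mesenchymal cells. Neither group lay above background level, with readings of 4.01 and 3.89 under DMSO and 3.90 and 3.79 under zerumbone. The groups overlapped, and the difference was -0.11 (95% interval -0.32 to 0.10) with a limma adjusted p of 0.352.

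CDH17 encodes liver-intestine cadherin, whose short tail lacks the catenin-binding region of the classical cadherins. It read 13.61 and 13.70 under DMSO and 12.36 and 12.44 under zerumbone. The 2 groups were separated by 1.17, many times the distance within either. The mean was 13.66 ± 0.0639 (SD, n = 2) without and 12.40 ± 0.0558 (SD, n = 2) with zerumbone, a difference of -1.26 with a standard error of 0.071 and a limma adjusted p of 2.19e-04. A lower difference was found for 987 genes.

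CTNNA1, the gene of alpha-catenin, read 10.80 and 10.91 under DMSO and 11.62 and 11.64 under zerumbone. It was the one called member that was higher, with both zerumbone values above both DMSO values by at least 0.71. The mean rose from 10.85 ± 0.078 (SD, n = 2) to 11.63 ± 0.0165 (SD, n = 2), a difference of 0.78 (95% interval 0.60 to 0.96) with a limma adjusted p of 9.20e-04.

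JUP encodes plakoglobin, also called gamma-catenin, a close relative of beta-catenin that serves both adherens junctions and desmosomes. It read 9.26 and 9.12 under DMSO and 8.40 and 8.45 under zerumbone, a gap of 0.68 between the groups. The mean fell from 9.19 ± 0.0977 (SD, n = 2) to 8.43 ± 0.0291 (SD, n = 2). The difference was -0.77 (95% interval -0.96 to -0.57) with a limma adjusted p of 0.00124.

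CTNNB1, the gene of beta-catenin, read 10.20 and 10.27 under DMSO and 10.12 and 10.18 under zerumbone. The groups were only 0.0204 apart, less than the distance between the arrays of either group. The difference was -0.08 with a limma adjusted p of 0.385 and a 95% interval of -0.25 to 0.09. Whether the differences of the 3 catenins differ from each other was not tested.

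**Figure D2:**
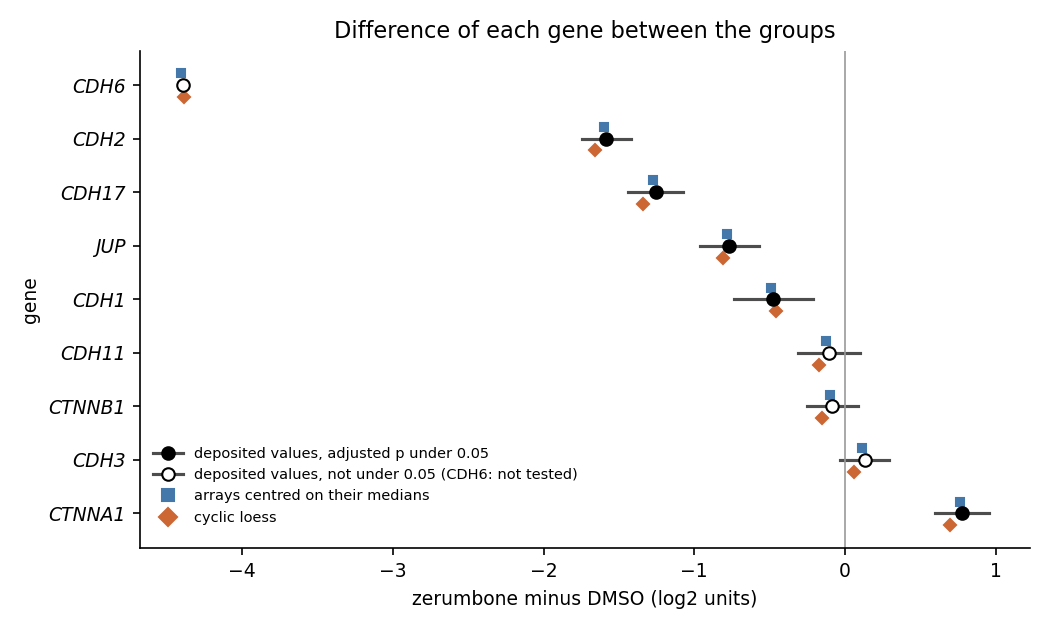
Zerumbone minus DMSO in log2 units (x axis) for each measured gene (y axis), with 95% limma intervals as lines, filled circles for an adjusted p under 0.05 and open circles otherwise. Squares and diamonds give the same difference after centring the arrays on their medians and after cyclic loess. CDH6 is drawn at -4.39 with no interval because it was picked for its fall and not tested, and no gene changes side under either scaling.

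Promoters are shown for members on either side of the comparison, CDH2 and JUP, which fell, CTNNA1, which rose, and CTNNB1, which did not pass. The stretches are the 250 bases before the outermost annotated start, and for JUP also before an inner start because it holds E-boxes, in RefSeq, build GRCh38.p14, read 5′ to 3′ on the gene's strand. Capitals mark, on both strands, the E-box CACCTG that SNAI and ZEB factors bind, the GC box GGGCGG, the CCAAT box and the TCF/LEF letters CTTTG followed by 2 bases that are each A or T. The CDH2 stretch lies at chr18:28177131-28177380 on the minus strand. For JUP the outer start is at chr17:41786712-41786961 and an inner start at chr17:41785977-41786226, both on the minus strand. The CTNNA1 stretch is at chr5:138753175-138753424 and the CTNNB1 stretch at chr3:41199255-41199504, both on the plus strand.
CDH2: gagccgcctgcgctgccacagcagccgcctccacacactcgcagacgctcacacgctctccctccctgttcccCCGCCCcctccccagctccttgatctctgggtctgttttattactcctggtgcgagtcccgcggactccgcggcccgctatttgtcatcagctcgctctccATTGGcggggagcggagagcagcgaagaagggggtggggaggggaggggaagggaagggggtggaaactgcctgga
JUP outer start: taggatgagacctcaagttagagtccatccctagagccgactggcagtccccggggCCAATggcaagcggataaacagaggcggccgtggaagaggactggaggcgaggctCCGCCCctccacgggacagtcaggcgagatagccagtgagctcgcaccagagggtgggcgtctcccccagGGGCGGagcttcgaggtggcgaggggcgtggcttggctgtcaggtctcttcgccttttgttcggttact
JUP inner start: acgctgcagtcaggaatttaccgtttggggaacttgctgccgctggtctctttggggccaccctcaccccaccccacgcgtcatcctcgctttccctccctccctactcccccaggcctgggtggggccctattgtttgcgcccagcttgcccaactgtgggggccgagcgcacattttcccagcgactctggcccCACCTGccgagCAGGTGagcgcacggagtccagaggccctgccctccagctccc
CTNNA1: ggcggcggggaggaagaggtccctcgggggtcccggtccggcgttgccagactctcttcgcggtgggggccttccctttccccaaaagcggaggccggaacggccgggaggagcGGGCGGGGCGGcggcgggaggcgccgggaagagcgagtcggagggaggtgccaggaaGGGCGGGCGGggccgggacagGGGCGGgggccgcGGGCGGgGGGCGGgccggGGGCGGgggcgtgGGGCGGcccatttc
CTNNB1: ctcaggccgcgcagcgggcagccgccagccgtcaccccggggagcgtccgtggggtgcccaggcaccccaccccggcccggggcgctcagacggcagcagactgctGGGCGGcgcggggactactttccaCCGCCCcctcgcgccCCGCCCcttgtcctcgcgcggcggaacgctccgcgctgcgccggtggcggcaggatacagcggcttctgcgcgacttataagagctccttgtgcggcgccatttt

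The inner JUP stretch, printed because of its E-boxes, holds 2, and the other 4 printed stretches hold 0. An E-box is found in 17.5% of the 35116 stretches of this length in the same table. That share is no measure for the inner JUP stretch, which was picked for its match. CTNNA1 holds 9 GC boxes, some of them overlapping, CTNNB1 holds 3, the outer JUP stretch 2 and CDH2 1, and 42.6% of all stretches hold at least 1. The CCAAT box, found in 32.0% of all stretches, occurs 1 time each in CDH2 and in the outer JUP stretch. The TCF/LEF letters, in 12.0% of all, occur in none of those printed. For CTNNA1 there are 3 further annotated starts, with 4, 0 and 0 GC boxes and 0, 1 and 1 TCF/LEF matches. The last 2 of these stretches overlap, and their TCF/LEF match is the same site. For CDH2 there is 1 further start, with 0 of either. Of these further stretches, 2 of CTNNA1 and the CDH2 one hold a CCAAT box, and none holds an E-box. These matches describe letters in a window. No promoter is printed for CDH1, CDH3, CDH6, CDH11, CDH17 or CTNND1.

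The remaining classical and related cadherins were mostly not above background. Of 17 listed, 15 were measured, and 14 of these lay at background level under either condition. CDH19, a cadherin of Schwann cell precursors, had a call (difference -0.42, limma adjusted p 0.00868), but it was itself at background level in both groups, so no fold is given, and the call was lost without DMSO replicate 2 (adjusted p 0.0736). The median difference of the list was 0.09, beside 0.07 over all genes. CDH4 and CDH13 are not analysed here.

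Among atypical cadherins and protocadherins 6 of 18 measured genes fell and 0 rose, beside 17.7% and 18.4% of all genes, with a median difference of -0.01 beside 0.07. FAT1, a giant cadherin that acts in polarity and growth control, read 14.40 and 14.45 under DMSO and 11.57 and 11.42 under zerumbone. This 7.65-fold fall (-2.94, limma adjusted p 4.81e-05) was larger in size than that of any tested member. CLSTN1, a calsyntenin, fell by 0.90 and CELSR1, a planar polarity cadherin, by 0.68. PCDH7 had a difference of -0.39 at background level in both groups. The number that fell was 3 without DMSO replicate 1 and 3 without DMSO replicate 2, and 13 of the 18 lay at background level whichever the group. The 3 above background on every array all fell, and 66.8% of all such genes were called.

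The wider catenin family was measured for 6 genes, of which 1 rose, 1 fell and 4 lay at background level under either condition. The called share was 33.3% beside 36.0% of all genes, and the median difference was 0.11. The 2 called were those above background on every array, where 66.8% of all genes were called. PKP4, the gene of p0071, a relative of p120 catenin, read 9.30 and 9.24 under DMSO and 6.26 and 6.16 under zerumbone, an 8.32-fold fall (limma adjusted p 4.01e-05). CTNNAL1, the gene of alpha-catulin, a relative of alpha-catenin, read 10.55 and 10.52 under DMSO and 12.21 and 12.34 under zerumbone, a rise of 1.74 (limma adjusted p 1.06e-04). Their groups were clearly apart in both cases. The signs are those of JUP and CTNNA1 respectively.

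Desmosomes are the junctions that plakoglobin shares with adherens junctions, and their genes moved in both directions. Of 13 measured 2 rose, 2 fell and 9 did not pass, a called share of 30.8% beside 36.0% over all genes, and 7 of the 13 were at background level in each group. Of the 5 above background on every array 4 were called, beside 66.8% of all such genes. The median difference was 0.07, as over all genes. The rises were in the desmosomal cadherins DSC2, from 9.25 and 9.29 to 11.23 and 11.26, and DSG2, from 14.86 and 14.88 to 15.78 and 15.95. The falls were in PKP2, a plakophilin, from 10.58 and 10.62 to 8.60 and 8.73, and DSP, the desmoplakin gene, from 13.54 and 13.58 to 12.97 and 13.01. DSC2 was 3.95-fold and DSG2 1.99-fold higher, and PKP2 was 3.82-fold and DSP 1.49-fold lower. PKP3, a further plakophilin above background on every array, differed by 0.03 and did not pass (limma adjusted p 0.775). In the order of protein-coding genes on chromosome 18, CDH2 stands between CHST9 and DSC3, at distances not given here. DSC3, another desmocollin, was at background level in both groups.

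Genes of proteins that work with the cadherin and catenin complex at the adherens junction were mostly called, with 6 of 14 lower and 4 higher. Of the 4 higher, 1 lay at background level in both groups. The falls were led by LIMA1 (-2.56), an actin-binding partner of alpha-catenin, ACTN4 (-1.38), an actin crosslinker, and AJUBA (-1.18), a LIM protein. TJP1, a scaffold between junctions and actin, rose by 1.20. The called share was 71.4% beside 36.0% of all genes. Of the 12 above background on every array 9 were called, beside 66.8% of all such genes, and the median difference of the list was -0.03. The number that rose was 2 without DMSO replicate 1, 2 without DMSO replicate 2 and 2 without zerumbone replicate 2, and 2 also with all transcript clusters tested together.

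Enzymes and adaptors that cleave or remove cadherins were higher for 5 of 10 and lower for 2, a called share of 70.0% beside 36.0% of all genes. Of these 10, 9 were above background on every array, and they include all the called ones. At such levels 66.8% of all genes were called. The median difference of the list was 0.31. ADAM10, the protease that sheds E-cadherin and N-cadherin, fell by 0.95, from 11.70 and 11.83 to 10.79 and 10.83. FURIN, a convertase that trims cadherin precursors, rose by 1.21, from 7.59 and 7.58 to 8.81 and 8.79. PSENEN, a subunit of gamma-secretase, which cuts cadherin stubs, rose by 1.28, and CBLL1, the Hakai ubiquitin ligase of E-cadherin, by 0.89.

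**Figure D3:**
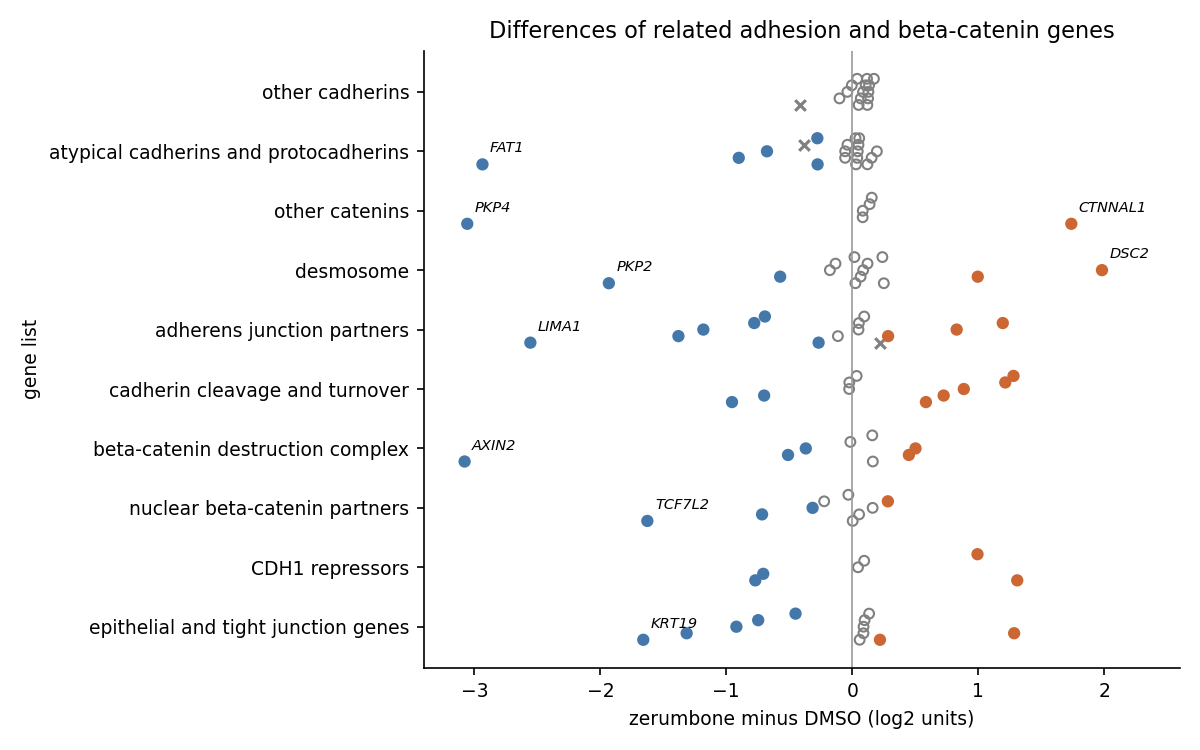
Zerumbone minus DMSO in log2 units (x axis) for the measured genes of 10 related lists (y axis), 1 point per gene with a small vertical offset. Orange and blue points passed the test as higher and lower, grey crosses passed but lay at background level under either condition, and open circles did not pass. AXIN2, PKP4 and FAT1 lie farthest to the left, at -3.08, -3.056 and -2.94, and DSC2 and CTNNAL1 farthest to the right, at 1.98 and 1.74.

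CTNNB1 did not pass, and the genes that act on its protein were mixed. In the destruction complex, which marks beta-catenin for removal, 3 of 8 genes fell and 2 rose. All 8 were above background on every array, and the called share of 62.5% stands beside 66.8% of all such genes, with a median difference of 0.07. AXIN2, a scaffold of that complex and itself a known Wnt target, read 9.23 and 9.36 under DMSO and 6.12 and 6.32 under zerumbone, an 8.44-fold fall (-3.08, limma adjusted p 6.45e-05). BTRC, a ubiquitin ligase subunit, fell by 0.51. The rises were small. CSNK1A1, a priming kinase, rose by 0.50 and APC, a scaffold, by 0.45. The call of CSNK1A1 was lost without DMSO replicate 1 or replicate 2 (adjusted p 0.139 each), and that of APC without DMSO replicate 1 (0.0727), which leaves 0 rises in that setting and 1 without DMSO replicate 2. With all transcript clusters tested together, 2 genes fell in place of 3 and 1 rose in place of 2. AMER1 is not analysed here.

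Of nuclear partners of beta-catenin 3 of 9 measured genes fell and 1 rose, a called share of 44.4% beside 36.0% of all genes. The median difference was -0.03. All those called were among the 5 above background on every array, where 66.8% of all genes were called. A further 4 of the 9 lay at background level in both groups. TCF7L2, the DNA-binding TCF factor of liver and gut, read 8.24 and 8.36 under DMSO and 6.71 and 6.64 under zerumbone, a fall of 1.63 (limma adjusted p 1.24e-04). BCL9L, a coactivator, fell by 0.72 and PYGO2, which binds BCL9 proteins, by 0.31. CREBBP, an acetyltransferase, rose by 0.28. The CREBBP call was lost without either DMSO array and without zerumbone replicate 2 (adjusted p 0.0796 to 0.154), and so was the PYGO2 call (0.0756 to 0.151). After cyclic loess CREBBP also missed the threshold (adjusted p 0.0783). TCF7 and EP300 are not analysed here.

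Of 6 transcription factors that repress CDH1, 2 were higher and 2 lower. The 4 called were those above background on every array, where 66.8% of all genes were called, and the median difference was 0.07. SNAI2, the Slug gene, rose by 0.99, from 6.06 and 6.14 to 7.15 and 7.03. SNAI1, the Snail gene, read 5.30 and 5.62 under DMSO and 6.38 and 7.15 under zerumbone, with the zerumbone arrays well apart from each other. Its difference of 1.31 had a limma adjusted p of 0.0184, which was 0.113 without DMSO replicate 1 and 0.0649 without DMSO replicate 2. ZEB1 fell by 0.71 and TCF3, which encodes E47 and E12, by 0.77. ZEB2 is not analysed here.

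Other epithelial and tight junction genes were lower for 5 of 12 and higher for 2, a called share of 58.3% beside 36.0% of all genes. The 7 called were those above background on every array, where 66.8% of all genes were called, and the median difference was 0.07. The keratin genes KRT19 (-1.66) and KRT8 (-1.31) and CGN, the cingulin gene (-0.92), fell. OCLN, the occludin gene, rose by 1.29, from 7.86 and 7.78 to 9.02 and 9.19. The number that rose was 1 in place of 2 without any single array, whichever it was, after median centring, with an intensity trend and with all clusters tested. EPCAM was at background level in both groups.

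The cell type of the label was checked against markers. Of 6 measured hepatocyte markers, 5 (APOA1, APOB, TTR, SERPINA1 and AFP) lay at background level under either condition and ALB did so under DMSO, and 0 were called. Under zerumbone ALB was above the background level on replicate 1 (4.93 against 4.74) and under it on replicate 2 (4.76 against 5.03). All 4 leukocyte markers were at background level, with 0 called. Of fibroblast markers 2 of 5 were lower, LUM by 1.22 and DCN by 0.32, the second at background level under zerumbone, while COL1A1, COL1A2 and PDGFRB were at background level. DCN was also under background level on DMSO replicate 2 (4.92 against 5.10). With the mean of a gene's rows the DCN difference was -0.05 (limma adjusted p 0.792). Of endothelial markers 2 of 4 were lower, KDR by 1.93 and PECAM1 by 0.24, the second at background level in both groups, and VWF and TEK were at background level. By the same test 17.7% of all genes were lower and 36.0% were called in either direction. LUM and KDR were the only genes of these marker lists above background on every array, where 66.8% of all genes were called. The calls of DCN and PECAM1 were lost whichever array was left out. Summed log2 values of the fibroblast list ranged from 22.49 to 22.59 under DMSO and from 21.00 to 21.17 under zerumbone, and those of the endothelial list from 18.84 to 18.89 and from 16.55 to 16.74, with LUM and KDR holding most of the difference. Those of the leukocyte list ranged from 14.06 to 14.09 and from 14.54 to 14.66, and those of the hepatocyte list from 23.07 to 23.57 and from 23.49 to 24.10. The part of these genes in the differences of the cadherins was not tested.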

How the data were processed

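Total RNA of 4 samples was measured on 4 Affymetrix whole-transcript arrays. The authors deposited log2 expression values that the Affymetrix Expression Console computed by RMA, per the submitters' processing notes, which name no version. RMA subtracts a background and equalises the arrays' distributions. The values reach 19.93, above a scanner's range, so a further step is possible. The design text calls the array an exon array, whereas the row names and annotation belong to a transcriptome array. The genome build is not given in the sources used here. The labels give no batch, and the array titles run through DMSO and then zerumbone, so an order of processing cannot be told apart from the groups. The number of arrays limits the precision.

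Of 70523 rows, 2995 hold controls or single probe regions and were not used. Of 67528 transcript clusters, 23781 carry 1 symbol in the platform annotation, 1543 several and 42204 none. A gene with several rows was represented by the one whose mean over the arrays was highest. Groups came from the source labels, and replicates were numbered in the order of deposit. The 22465 genes were tested with lmFit and eBayes of limma 3.58.1 (R 4.3.3) in a two-sided test, adjusted by Benjamini-Hochberg at a threshold of 0.05, with 2 residual and 2.88 prior degrees of freedom. The steps were also run on simulated data with noise drawn independently for each gene and array. Such noise has no part that the genes of an array share, so that run is no check of the calls given here. Background level is the 95th percentile of 23 antigenomic rows per array, and a gene is at it in a group when both arrays lie under it. For a fold against such a group, the background level replaced the dimmer value. Figures used matplotlib 3.10.9 (Python 3.11.15).

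The members, the lists and the rule for named genes were chosen with earlier results of these data known. The rule takes all members, up to 4 called genes with the largest change per list among those whose groups do not overlap, and the 3 genes nearest to CDH6 and to each other member with a called change of at least 1, of which those of CDH6 are not reported because its size of change is not measured. Genes named as at background level, as DSC3 and EPCAM are, fall outside it, and their values had been seen when they were named. Alternatives were median centring, cyclic loess, leaving out dim genes, the mean of a gene's rows, testing all clusters, an intensity trend and leaving out each array.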

Additional observations from a re-analysis of the deposited data

How the results depend on the processing

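Of the 8 tested members, 7 kept their direction and their side of the threshold under all alternatives that could be run. The exception was CDH1, whose difference of -0.48 had an adjusted p of 0.0593 with all clusters tested, and from 0.0184 to 0.12 with single arrays left out, where the difference ran from -0.58 to -0.37. With dim genes left out CDH3 and CDH11 were not tested. With single arrays left out CDH2 ran from -1.62 to -1.55, CDH17 from -1.30 to -1.21, JUP from -0.84 to -0.70 and CTNNA1 from 0.72 to 0.83. CDH3 from 0.10 to 0.16, CDH11 from -0.17 to -0.05 and CTNNB1 from -0.12 to -0.05. The number of members that fell was 3 or 4 and the number that rose stayed at 1. Over the 111 distinct genes of the lists, 19 rose and 31 fell, and with single arrays left out these counts ran from 12 to 17 and from 24 to 30. Over all genes, 4125 rose and 3966 fell, and the counts ran from 2557 (without DMSO replicate 1; 2687 without DMSO replicate 2) to 3822 and from 2854 to 3642. Of 39 genes named from the lists, 30 kept direction and call under every alternative run, and the calls lost were those of APC, CDH19, CREBBP, CSNK1A1, DCN, PCDH7, PECAM1, PYGO2 and SNAI1, with 0 reversed. The cause of these losses was not tested. No paired analysis was possible because the labels give the arrays of the groups no shared replicate numbers.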
